A study of Mus musculus with 6 samples.

Results

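The Frizzled receptor family was followed across 6 RNA-seq libraries of mouse skin. Its 10 genes, Fzd1 to Fzd10, were taken by symbol from a deposited table of 18824 genes, and all 10 were present. The libraries formed 2 groups of 3, titled CCR3 and VEH (vehicle), with replicates 1, 2 and 4 in each. All came from C57BL/6j mice and, by the series title, from mice given MC903, a vitamin D analogue that, painted on skin, brings on inflammation resembling atopic dermatitis. The CCR3 group received a compound that the labels name in 2 ways: the title gives SB328437, which blocks the chemokine receptor CCR3, and the treatment label gives SC144, which blocks gp130, a subunit of cytokine receptors. Which of them was given cannot be told from the labels, and the labels state no dose, time or age. Both groups are inflamed skin, so no level without MC903 stands beside these values. The labels do not tie replicates to individual mice, and p-values therefore reflect the spread among these samples, which may be technical.

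Frizzled proteins span the membrane repeatedly and bind lipid-bearing Wnt proteins through a cysteine-rich domain outside the cell. With the co-receptors Lrp5 and Lrp6 they recruit Dishevelled and stabilise beta-catenin, and with Ror or Ryk receptors, or with the planar cell polarity proteins, they act on cell shape and movement. In skin, Wnt signalling is known for starting hair follicles and driving hair growth, and Fzd6 is known for aligning hairs in mice. Sequence similarity groups the family as Fzd1, Fzd2 and Fzd7, as Fzd5 and Fzd8, as Fzd3 and Fzd6, and as Fzd4, Fzd9 and Fzd10.

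Because family members resemble each other, their transcripts were compared over runs of 50 bases, the length of the reads. None of the runs in the GENCODE transcripts of any of the 10 genes (assembly GRCm38) occurred in a transcript of another Frizzled gene, so on this annotation exact matches of that length do not mix the members. Fzd2, with 3614 runs, shared 0 with any other gene. Fzd5 shared 16.4% of its runs with Gm38058, which is annotated over it on the opposite strand, and Fzd6 shared 2.12% with the opposite-strand RNA Gm26704. The strand setting of the counting is not given, so Fzd5 and, to a smaller extent, Fzd6 values may hold reads of these partners.

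Promoter sequences came from RefSeq (GRCm38.p6, 250 bases before to 50 after the start of the gene). They were taken for 6 of the 10 members, namely Fzd1, Fzd4, Fzd5, Fzd7, Fzd9 and Fzd10. Fzd2, Fzd3, Fzd6 and Fzd8 are not among them. For Fzd8 this need not mean that the source lacks an entry. The promoters of Fzd1 and Fzd7 are shown because these 2 genes are the closest relatives of Fzd2, whose level differed while theirs did not pass the test. Capitals mark 3 motifs searched on both strands: the CCAAT box as CCAAT, the GC box as GGGCGG, and the TATA box as TATAAA. GC boxes that overlap each other were each counted.
Fzd1, chr5:4758167-4758466, minus strand: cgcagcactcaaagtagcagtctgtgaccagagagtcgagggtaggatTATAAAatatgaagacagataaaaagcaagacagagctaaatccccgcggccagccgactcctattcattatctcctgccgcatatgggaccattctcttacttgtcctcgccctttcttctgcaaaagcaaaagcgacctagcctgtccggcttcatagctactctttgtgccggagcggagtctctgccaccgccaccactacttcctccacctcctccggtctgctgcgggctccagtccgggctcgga
Fzd7, chr1:59481897-59482196, plus strand: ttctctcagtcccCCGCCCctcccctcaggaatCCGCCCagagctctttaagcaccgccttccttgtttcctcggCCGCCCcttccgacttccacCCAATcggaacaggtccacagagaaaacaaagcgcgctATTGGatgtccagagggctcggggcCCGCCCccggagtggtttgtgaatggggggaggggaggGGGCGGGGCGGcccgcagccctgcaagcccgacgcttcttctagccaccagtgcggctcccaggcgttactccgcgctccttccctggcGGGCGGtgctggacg
The Fzd1 window held 1 TATAAA, at position -202 from the start of the gene, and 0 of the other motifs. The Fzd7 window held 2 CCAAT and 7 GGGCGG. G and C made up 54% of the Fzd1 window and 66.7% of the Fzd7 window, against a median of 52.7% over 32851 promoters. Of those promoters 37.4% held CCAAT, 35.7% GGGCGG and 13.6% TATAAA. The matches describe the letters of these windows and were tied to no binding data.

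Values are FPKM, reads scaled to transcript length and library total, so levels can be compared between genes. FPKM summed to between 517764 and 553305 per library, and read depth is unknown. The groups were compared with limma on log2(FPKM + 1), on 13063 genes with at least 1 FPKM in at least 3 libraries, with Benjamini-Hochberg adjustment over all of them. At an adjusted p under 0.05, 3.74% of tested genes were called (488), 1.36% higher and 2.37% lower in CCR3. The share of higher genes among the calls was 36.5%, or 46.8% with median-centred values and 47.7% with libraries scaled to the same sum. The number called was 149, 321 and 1641 without CCR3 replicate 1, 2 and 4, and 75, 120 and 74 without VEH replicate 1, 2 and 4. In 28.6% of tested genes the groups did not overlap, with CCR3 higher in 10.4% and lower in 18.3%. The median log2 fold change of all tested genes was -0.04, and 40.2% of them had a positive one.

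Of the 10 Frizzled genes 9 passed the filter on low values and were tested. By limma, 1 of the 9 was lower in CCR3 (Fzd2), 0 were higher, and 8 did not pass. Log2 fold changes were positive for Fzd1, Fzd4, Fzd5, Fzd6 and Fzd10 and negative for Fzd2, Fzd7, Fzd8 and Fzd9, with a median of 0.00. The groups did not overlap for 4 members, Fzd6 and Fzd10 with CCR3 higher and Fzd2 and Fzd8 with CCR3 lower.

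**Figure D1:**
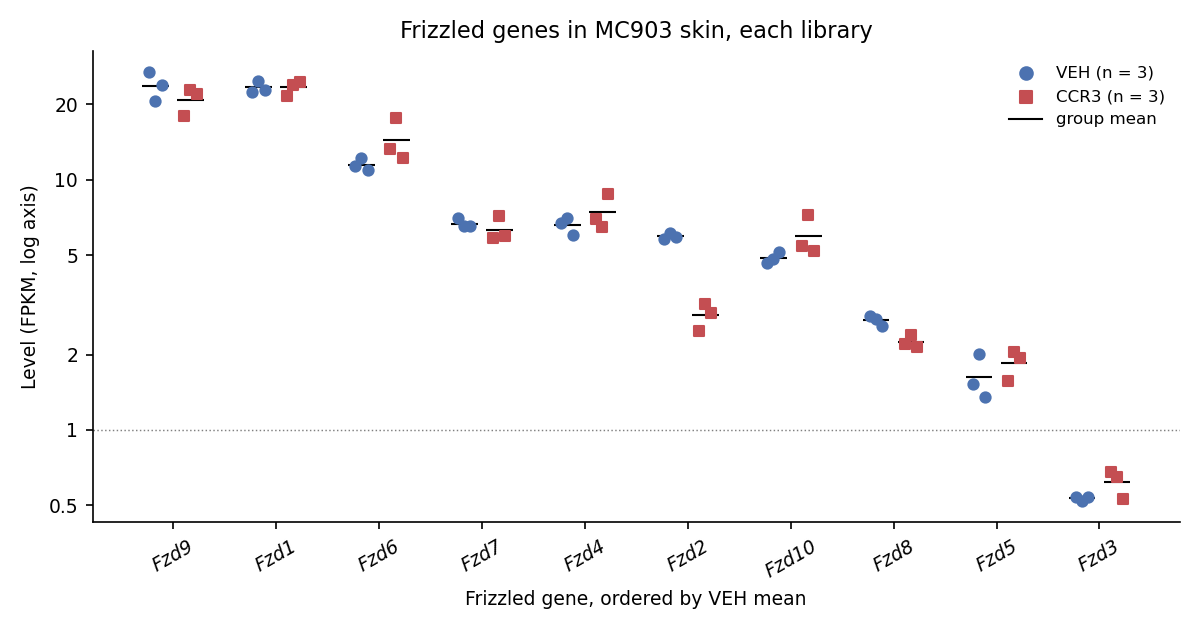
Level of each Frizzled gene (FPKM, log axis) in every library, with genes ordered by the VEH mean, circles for the 3 VEH libraries, squares for the 3 CCR3 libraries, black lines for group means and a dotted line at 1 FPKM. Fzd2 shows the widest gap, with VEH libraries between 5.80 and 6.13 FPKM and CCR3 libraries between 2.48 and 3.19 FPKM.

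Fzd2 (Entrez gene 57265) encodes a receptor that works with Ror proteins in the response to Wnt5a and also in beta-catenin signalling. It stood at 2.48, 3.19 and 2.94 FPKM in CCR3 replicates 1, 2 and 4 and at 5.80, 6.13 and 5.88 FPKM in VEH replicates 1, 2 and 4. Every CCR3 library lay below every VEH library, and the gap between the groups was wider than the range within either. The CCR3 mean of 2.87 ± 0.360 FPKM was 2.07-fold below the VEH mean of 5.94 ± 0.172 FPKM (SD, n = 3 in each group). On the log2(FPKM + 1) scale Fzd2 fell by 0.85 with an SE of 0.087 and a 95% interval from -1.05 to -0.65 (limma adjusted p = 0.00399). The call held without each library in turn, with log2 fold changes from -0.91 to -0.77 and a highest adjusted p of 0.0348 by limma. On the log2(FPKM + 1) scale the change stayed short of 2-fold. In whole skin, fewer cells that express a gene and less RNA of it per cell cannot be told apart.

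Fzd1 and Fzd7, the relatives of Fzd2, gave no such difference. Fzd1 stood at 21.66, 24.04 and 24.64 FPKM in CCR3 and at 22.43, 24.94 and 22.89 FPKM in VEH. These values interleave, and the log2 fold change was 0.00 with a 95% interval from -0.17 to 0.17 (limma adjusted p = 0.996). Its sign depended on which library was left out. Fzd7, a receptor known from stem cells of the gut in mice, stood at 5.84, 7.14 and 5.96 FPKM in CCR3 and at 7.01, 6.53 and 6.51 FPKM in VEH. Its groups overlapped, with a log2 fold change of -0.08 and an interval from -0.27 to 0.12 (adjusted p = 0.627). This value was -0.15 without CCR3 replicate 2 and between -0.04 and -0.03 without CCR3 replicate 1, CCR3 replicate 4 or VEH replicate 1, and passed in none. Both intervals lie above that of Fzd2. Within a library the FPKM of Fzd2 was 0.114, 0.133 and 0.119 of that of Fzd1 in CCR3, against 0.259, 0.246 and 0.257 in VEH. Relative to Fzd7 it was 0.425, 0.447 and 0.493 in CCR3, against 0.827, 0.939 and 0.903 in VEH. These ratios do not depend on how a library was scaled, and neither overlapped between the groups.

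**Figure D2:**
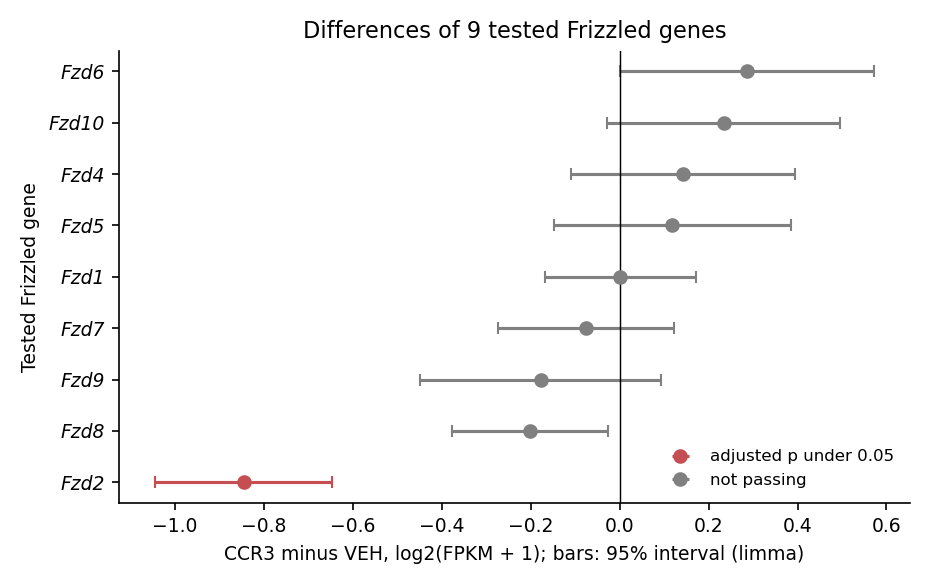
Difference of CCR3 from VEH in log2(FPKM + 1) for the 9 tested Frizzled genes, with 95% intervals from limma; red marks an adjusted p under 0.05 and grey marks genes that did not pass. Fzd2 is at -0.85, and the other members lie between -0.20 (Fzd8) and 0.29 (Fzd6).

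Fzd6 and Fzd3 are the members known for planar cell polarity, Fzd6 for the direction of hairs and Fzd3 for the growth of nerve tracts in mice. Fzd6 had the largest positive difference of the family and did not pass. It stood at 13.29, 17.65 and 12.22 FPKM in CCR3 and at 11.37, 12.18 and 10.91 FPKM in VEH. The groups were separate only by the step from 12.18 to 12.22 FPKM, and CCR3 replicate 2 stood well above the rest. Means were 14.4 ± 2.88 and 11.5 ± 0.643 FPKM, and the log2 fold change was 0.29 ± 0.124 (SE; limma adjusted p = 0.214). Without each library in turn it ran from 0.14 to 0.39 and did not pass. Fzd3 was the lowest member and lay under the filter, with 0.68, 0.65 and 0.53 FPKM in CCR3 and 0.54, 0.52 and 0.54 FPKM in VEH. The Fzd3 groups overlapped.

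Fzd10, Fzd9 and Fzd4 form the next group. Fzd10 stood at 5.42, 7.25 and 5.18 FPKM in CCR3 and at 4.65, 4.82 and 5.12 FPKM in VEH. As with Fzd6, CCR3 replicate 2 was the highest library and the groups were separated by a small step, from 5.12 to 5.18 FPKM. Its log2 fold change was 0.23 with a 95% interval from -0.03 to 0.50 (limma adjusted p = 0.258), and 0.10 without CCR3 replicate 2. Fzd9 stood at 17.98, 22.78 and 21.95 FPKM in CCR3 and at 26.93, 20.56 and 23.90 FPKM in VEH. Its groups overlapped and both spread widely, with a log2 fold change of -0.18 and an interval from -0.45 to 0.09 (adjusted p = 0.392). Without 1 library it ran from -0.27 (VEH replicate 2) to -0.09 (VEH replicate 1) and -0.08 (CCR3 replicate 1), and did not pass. Fzd4, the receptor through which the secreted protein Norrin acts on blood vessels, stood at 6.97, 6.49 and 8.79 FPKM in CCR3 and at 6.74, 7.0 and 6.02 FPKM in VEH. Its log2 fold change of 0.14 (interval -0.11 to 0.40, adjusted p = 0.461) became 0.03 without CCR3 replicate 4, its highest library, 0.22 without CCR3 replicate 2 and 0.09 without VEH replicate 4.

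Fzd5 and Fzd8, a related pair that acts through beta-catenin, were among the low members. Fzd8 stood at 2.20, 2.40 and 2.15 FPKM in CCR3 and at 2.86, 2.77 and 2.59 FPKM in VEH. All CCR3 libraries lay below all VEH libraries, but the difference did not pass after adjustment (log2 fold change -0.20 ± 0.0762 SE, 95% interval -0.38 to -0.03, limma adjusted p = 0.166). It passed neither without any 1 library nor under another scaling. Fzd5 stood at 1.57, 2.04 and 1.93 FPKM in CCR3 and at 1.53, 2.01 and 1.35 FPKM in VEH. Its groups overlapped, with a log2 fold change of 0.12 and an interval from -0.15 to 0.39 (adjusted p = 0.565). It was 0.22 without VEH replicate 2, 0.19 without CCR3 replicate 1, 0.07 without CCR3 replicate 2 and 0.04 without VEH replicate 4, and passed in none.

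Summed over the 10 members, the Frizzled level was 78.09, 93.63 and 86.29 FPKM in CCR3 and 89.86, 87.46 and 85.71 FPKM in VEH. These sums overlapped, at 86.0 ± 7.77 and 87.7 ± 2.08 FPKM (SD, n = 3 each). Fzd9 and Fzd1 led in both groups, and their libraries overlapped with each other in CCR3 and in VEH. Fzd6 came next in both groups, with all its libraries below those of Fzd9 and Fzd1. In VEH, Fzd7, Fzd4 and Fzd2 followed, each overlapping the next, and Fzd2 lay above Fzd10 in every library. In CCR3 this was the other way round, with Fzd2 below all libraries of Fzd10 and above those of Fzd8. Fzd8, Fzd5 and Fzd3 closed the order in both groups without overlapping each other. Fzd2 made up 3.18% to 3.41% of the summed level in CCR3 libraries and 6.45% to 7.01% in VEH libraries. The share of Fzd6 was 14.2% to 18.9% against 12.7% to 13.9%.

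**Figure D3:**
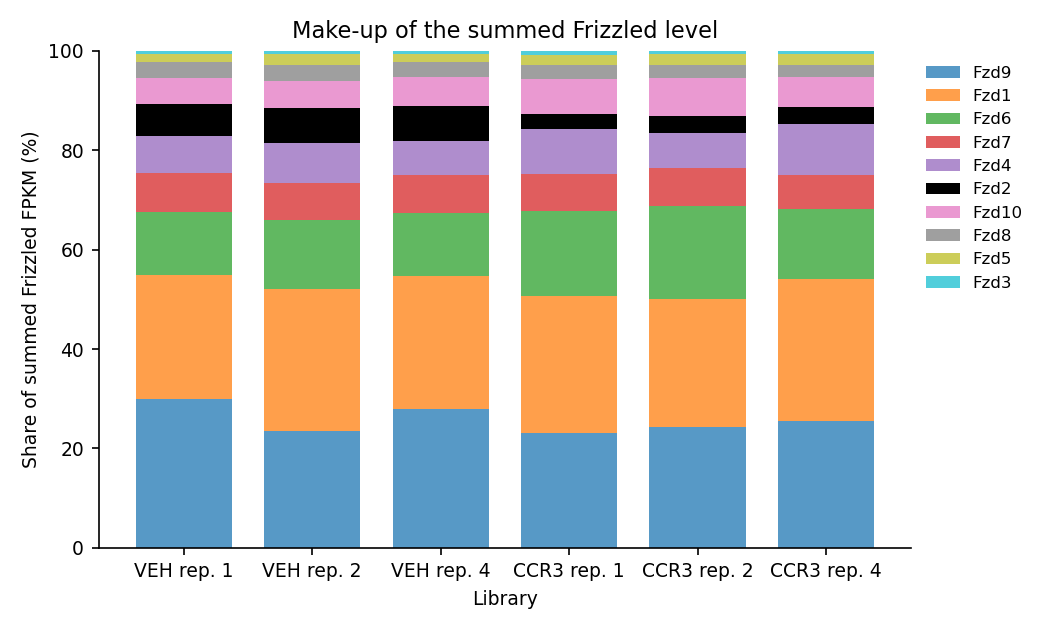
Share of each Frizzled gene in the summed Frizzled FPKM (percent) of each library, VEH on the left and CCR3 on the right, stacked in the order of the VEH means. The black segment, Fzd2, is narrower in the 3 CCR3 libraries (3.18% to 3.41%) than in the 3 VEH libraries (6.45% to 7.01%).

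The other genes of the pathway were taken from 10 lists by role with 96 genes, of which 74 were tested. By limma 3 were higher and 4 lower in CCR3, which is 9.46% of those tested against 3.74% of all tested genes, and their median log2 fold change was 0.00 against -0.04 over all genes. Some genes, Ndp and Wnt9a among them, reached 1 FPKM in no library of 1 group. Without these, 6 of 72 pathway genes (8.33%) and 469 of 12998 genes in all (3.61%) were called. The lists were chosen with earlier results of these data known, so these shares cannot show an excess of calls in the pathway. Among the partners of Frizzled at the membrane, 1 of 8 tested co-receptors and other Wnt receptors was higher. This was Ror1, a receptor kinase for Wnt5a, at 2.79, 3.27 and 3.12 FPKM in CCR3 and at 1.60, 1.64 and 1.48 FPKM in VEH. The Ror1 groups were far apart (log2 fold change 0.66 ± 0.081 SE, limma adjusted p = 0.00846), but it missed the threshold without VEH replicate 4 (adjusted p = 0.0501). Its relative Ror2 overlapped between groups at 1.49 and 1.5 FPKM on average. Lrp5, with the second smallest p of this list, averaged 22.8 against 19.6 FPKM and did not pass (adjusted p = 0.158).

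**Figure D4:**
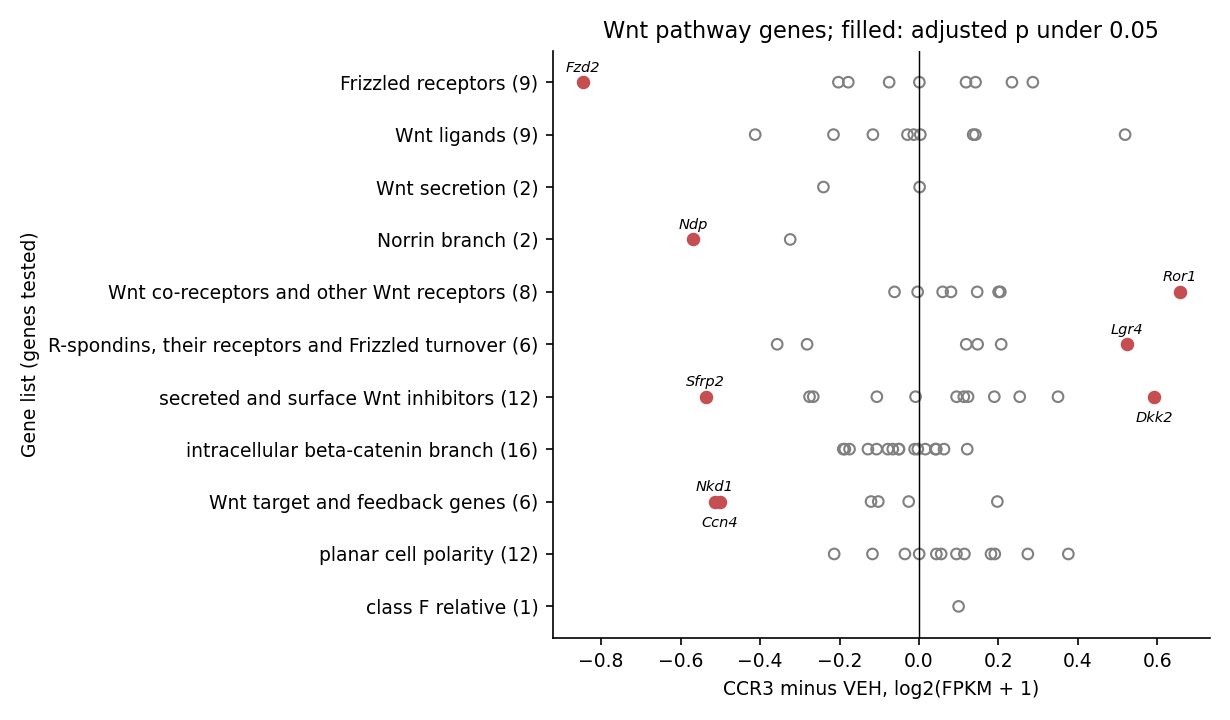
Difference of CCR3 from VEH in log2(FPKM + 1) for tested genes of the Frizzled family and of 10 Wnt pathway lists, 1 circle per gene; filled circles passed at an adjusted p under 0.05. Fzd2, Ndp, Sfrp2, Nkd1 and Ccn4 lie to the left of 0 and Ror1, Lgr4 and Dkk2 to the right, while no circle of the intracellular branch, the ligands or planar cell polarity is filled.

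Of 19 Wnt ligand genes 9 were tested and none was called by limma at an adjusted p under 0.05. Wnt4, a ligand of the epidermis, had the widest positive difference, at 13.29, 21.00 and 12.49 FPKM in CCR3 and 9.43, 10.63 and 10.89 FPKM in VEH, without overlap but not passing (limma adjusted p = 0.131). Wnt11 averaged 1.89 against 2.81 FPKM (adjusted p = 0.126), and Wnt5a 6.67 against 6.72 FPKM (adjusted p = 0.946). Of the genes that ready Wnt proteins for release, Wls averaged 56.9 against 56.8 FPKM and Porcn 3.58 against 4.41 FPKM, and neither passed. Ndp, which encodes Norrin, the ligand of Fzd4, was lower. It stood at 0.95, 0.73 and 0.62 FPKM in CCR3 and at 1.63, 1.5 and 1.71 FPKM in VEH (log2 fold change -0.57 ± 0.0961 SE, limma adjusted p = 0.023). Ndp passed the filter only through its VEH libraries, so the filter itself favoured genes of this pattern. Tspan12, which helps Fzd4 receive Norrin, averaged 4.24 against 5.45 FPKM and did not pass (adjusted p = 0.219).

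R-spondins, their Lgr receptors and the ligases Znrf3 and Rnf43 set how much Frizzled stays at the cell surface. Of 6 tested genes 1 was higher, Lgr4, a receptor for R-spondins, at 8.45, 10.06 and 7.54 FPKM in CCR3 and at 5.93, 5.72 and 5.44 FPKM in VEH. All its CCR3 libraries lay above all VEH libraries (log2 fold change 0.52, SE 0.10, limma adjusted p = 0.0331). Rspo1, the R-spondin gene with the smallest p, averaged 2.54 against 3.54 FPKM and did not pass (adjusted p = 0.0838).

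Among 12 tested inhibitors of Wnt, 1 was higher and 1 lower. Sfrp2, a secreted protein with a Frizzled-like domain, stood at 11.93, 15.56 and 16.04 FPKM in CCR3 and at 21.45, 21.20 and 21.36 FPKM in VEH, without overlap (log2 fold change -0.54, limma adjusted p = 0.036). Dkk2, which binds Lrp5 and Lrp6, went the other way with 6.42, 7.39 and 7.81 FPKM in CCR3 and 4.99, 3.91 and 4.45 FPKM in VEH (log2 fold change 0.59, adjusted p = 0.023). None of the 16 tested genes of the intracellular branch was called by limma. The smallest p there belonged to Pygo2 and Tcf7l1, at 14.6 against 16.6 FPKM and 5.13 against 5.98 FPKM (adjusted p = 0.154 and 0.199).

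Of 6 tested target and feedback genes 2 were lower. Nkd1, a feedback inhibitor that binds Dishevelled, stood at 1.26, 1.41 and 1.29 FPKM in CCR3 and at 2.39, 2.44 and 2.11 FPKM in VEH (log2 fold change -0.51, limma adjusted p = 0.0178). Ccn4, a matrix protein gene first found as a Wnt target, averaged 1.08 against 1.94 FPKM (adjusted p = 0.0285). Axin2, the target most often read as a sign of beta-catenin activity, overlapped between groups at 3.15 and 3.20 FPKM (adjusted p = 0.907). It was chosen after its values were seen. None of 12 tested planar cell polarity genes was called by limma. Celsr2 averaged 5.67 against 4.11 FPKM and Vangl1 5.94 against 5.08 FPKM (adjusted p = 0.161 and 0.191). Smo, the Hedgehog transducer related to Frizzled in sequence, averaged 20.1 against 18.6 FPKM and did not pass (adjusted p = 0.384).

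Each of these 7 pathway calls was lost without at least 1 library. By limma the highest adjusted p was 0.106 for Ndp, 0.10 for Dkk2 and 0.138 for Lgr4, all without VEH replicate 4, as was 0.120 for Ccn4. For Nkd1 and Sfrp2 it was 0.0944 and 0.143, both without VEH replicate 1. Ndp, Dkk2, Lgr4, Nkd1, Sfrp2 and Ccn4 all missed the threshold without any 1 of the VEH libraries. Lgr4, Nkd1 and Ccn4 also missed it without CCR3 replicate 1, and Ccn4 without CCR3 replicate 2. Dkk2, Lgr4 and Sfrp2 also missed it when no filter was used, with adjusted p of 0.0589, 0.0782 and 0.0782. Sfrp2 missed it as well with libraries scaled to the same sum (adjusted p = 0.0608). The log2 fold changes themselves kept their sign without each library, from 0.62 to 0.71 for Ror1, 0.52 to 0.66 for Dkk2 and 0.42 to 0.61 for Lgr4. They ran from -0.64 to -0.51 for Ndp, -0.61 to -0.41 for Sfrp2, -0.56 to -0.49 for Nkd1 and -0.55 to -0.45 for Ccn4.

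The genes whose profiles over the 6 libraries lay nearest to a member were found by the root mean square difference of mean-centred log2(FPKM + 1) values. For Fzd2 these were Cxxc5, a zinc-finger gene (0.0452), Nlrp3, the sensor of an inflammasome (0.0547), and Rgs16, a regulator of G protein signalling (0.0948). Cxxc5 averaged 3.23 FPKM in CCR3 and 6.65 FPKM in VEH, and Nlrp3 4.03 and 7.41 FPKM. For Fzd6 they were Ifnlr1, a receptor gene for lambda interferons (0.0238), Il1rl2, the receptor gene for interleukin-36 (0.0283), and Cobl, an actin nucleator gene (0.0301). Nearness was measured over these same libraries, so sharing the high value of CCR3 replicate 2 follows from the choice.

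Whole skin mixes many cell types, and marker lists give their levels beside the Fzd2 result. Over all tested genes 40.2% had a positive log2 fold change, so a negative sign alone was common. All 5 dermal fibroblast markers had a negative log2 fold change (median -0.10), none was called by limma, and their summed level overlapped at 2898 to 3485 FPKM in CCR3 and 3292 to 3792 FPKM in VEH. The 6 pericyte and smooth muscle markers were also all negative (median -0.15), with 1 called (Pdgfrb) and summed levels of 128.6 to 152.2 against 154.4 to 172.4 FPKM. The 5 T cell markers summed to 26.6 to 37.9 against 45.8 to 49.8 FPKM with 2 called lower, and 6 immediate early genes, which respond to handling, to 90.7 to 105.4 against 122.7 to 179.5 FPKM with 3 called lower. The 5 adipocyte markers were all negative (median -0.64), with 1 called (Lep). For 4 of them (Adipoq, Plin1, Lep and Cidec) every CCR3 library lay below every VEH library. Their sums overlapped at 224.3 to 513.6 and 447.3 to 578.7 FPKM, most of it from Fabp4, whose groups overlapped. Of 5 endothelial markers 1 was called lower (Kdr) and all 4 melanocyte markers were negative with none called by limma, and both sums overlapped. Their part in the Fzd2 result was not tested.

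Positive differences prevailed in some of the other lists. All 5 basal and all 5 suprabasal keratinocyte markers had positive log2 fold changes (medians 0.21 and 0.54). None was called by limma, and their sums overlapped. CCR3 replicate 2 was the highest library for every one of these markers. Krt10, for example, stood at 835.86, 1778.89 and 640.12 FPKM in CCR3 replicates 1, 2 and 4 and at 629.96 to 672.51 FPKM in VEH. The log2 fold change of Krt1 was only 0.01. The sum of 5 hair matrix and inner sheath markers was 251.4 to 289.6 FPKM in CCR3 against 165.4 to 187.9 FPKM in VEH. Of 4 tested, 1 was called higher (Tchh). Most of this sum came from Tchh, at 257.3 FPKM in CCR3 against 171.6 FPKM in VEH on average. The groups of Krt71, Krt25, Krt35 and Gata3 overlapped. The sum of 5 markers of hair follicle stem cells and outer sheath was 216.8 to 233.1 against 184.0 to 207.6 FPKM, with none called by limma. The 5 skeletal muscle markers were also all positive (median 0.24) and the 4 sebocyte markers were mixed, 3 positive and 1 negative, with none called by limma and overlapping sums in both lists. Of 5 macrophage markers 1 was positive and 4 were negative, and of 4 Schwann cell markers 1 was positive and 3 were negative. The 4 neutrophil markers were mixed, 2 positive and 2 negative. So were the 2 tested dermal papilla markers, 1 positive and 1 negative. None of these was called by limma, and the sums of each list overlapped. None of the markers in these lists was at 0 in all libraries. Their part in the differences of Fzd6 and Fzd10, which did not pass, was not tested.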

How the data were processed

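RNA from 6 skin libraries was purified with oligo(dT) and sequenced from 1 end for 50 bases, as the labels' protocols state. HISAT was the aligner, per the submitters' processing notes. Its version and the build, annotation and counting tool were not given in the sources used here. The authors deposited FPKM values to 2 decimals, and these were the only measurements used. Low values were checked for the step of 1 read. Of 3563 values 5.92% were whole multiples, within 0.05, of the smallest value of their gene over all libraries. An even spread of these ratios would give 10%. The step of 1 read can differ between libraries with their read totals, so this check cannot give the depth.

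Groups came from the titles. In 25 rows a symbol had become a date and was renamed by Entrez number from RefSeq. Values were compared as log2(FPKM + 1) with limma 3.58.1 in R 4.3.3 (variance trend, 2-sided, Benjamini-Hochberg); fold changes on this scale understate those of low genes. The filter left out 5761 genes. The fit was tested on simulated data.

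Pathway genes named are those called and the 2 with the smallest p in each list, with the 3 genes nearest in profile to the members of largest rise and fall. Ror2, Wnt5a and Axin2 were added after their values were seen. Members and lists were chosen with earlier results of these data known. Wnt1 was not analysed here. Alternatives were other scalings, filters, pseudocounts, variance trends and thresholds, a replicate block, and each library left out.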

Additional observations from a re-analysis of the deposited data

How the results depend on the processing

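Fzd2 was lower in CCR3 and past the threshold under all 14 refits, with log2 fold changes from -1.03 (pseudocount 0.1) to -0.77 and adjusted p from 0.00367 to 0.0348. With a fold change of at least 2 on the log2(FPKM + 1) scale added, 0 members, 0 pathway genes and 16 higher and 21 lower genes in all were left. Fzd1, at 0.00, was negative without CCR3 replicate 2 (-0.02), CCR3 replicate 4 (-0.03), VEH replicate 1 (-0.03) or VEH replicate 4 (-0.01), with a range from -0.0345 to 0.0547 over the libraries left out. No other tested member changed sign, and none but Fzd2 passed under any refit. Fzd5 and Fzd8 have no value with a filter of 3 FPKM.

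Calls over all genes moved to 90 higher and 130 lower with no filter, to 403 and 759 at an adjusted p under 0.1, and to 173 lower with libraries scaled to the same sum. Without 1 library they ran from 28 to 558 higher and from 40 to 1083 lower. Pathway calls moved to 1 higher with no filter and to 1 lower with a filter of 3 FPKM. That filter left Ndp, Nkd1, Ccn4 and Ror1 untested, so their calls were dropped without a refit. Without 1 library pathway calls ran from 0 to 4 higher and from 0 to 5 lower.

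With a replicate block the calls were 89 higher and 144 lower over all genes and 1 higher and 0 lower in the pathway. Each number occurs once in each group, so this block cannot change a log2 fold change. The limma adjusted p of Fzd2 was 0.0256 with it. Deviations of same-numbered libraries from their group means correlated at -0.06, 0.08 and -0.03 across genes. Those of libraries with other numbers ran from -0.08 to 0.14. With 3 libraries in each group these values cannot settle whether samples were paired. The number was not used as a pairing because the labels give it only as a name. Read depth is unknown, so no counting error can be given for low members such as Fzd3.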
